A study of Mus musculus with 41 samples.

Results

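The 10 genes described here encode enzymes that use arginine or act on what is made from it: the arginases Arg1 and Arg2, the inducible nitric oxide synthase Nos2, its cofactor enzyme Gch1, the citrulline recycling enzymes Ass1 and Asl, and the polyamine enzymes Odc1, Srm, Sms and Sat1. They were chosen by gene symbol, and all 10 were found among the 55453 genes of the authors' deposited tables. RNA came from myeloid cells of orthotopic rectal tumours, grown from MC38-luc cells, a mouse colon carcinoma line with a luciferase gene, in female C57BL6 mice. Irradiated tumours were given 5 Gy in each of 5 daily fractions from day 9 to day 13 after implantation, untreated tumours (UT) were not irradiated, and both were taken on day 14. Sorted CD45+ CD11b+ cells gave 3 subsets: tumour-associated macrophages (TAM; Ly6C- Ly6G- F4/80+), inflammatory monocytes (Ly6C+ Ly6G-) and granulocytes (Ly6C+ Ly6G+). Libraries of untreated and irradiated tumours numbered 5 and 10 for TAM, 5 and 9 for inflammatory monocytes, and 5 and 7 for granulocytes. The 41 libraries carry 15 tumour numbers, so libraries of different subsets share tumours and the subsets are not separate sets of tumours. The labels give no age of the mice and do not say whether a tumour number is a single mouse.

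Arginine stands at a branch of metabolism in myeloid cells. Arginases split it into urea and ornithine, whereas nitric oxide synthase turns it into nitric oxide and citrulline, and both draw on the same pool. Ornithine feeds the polyamines putrescine, spermidine and spermine, which cells need for growth and translation, and arginine use by tumour myeloid cells is known for restraining T cells.

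The authors deposited, for each subset, a mean normalised count over libraries, a log2 fold change of irradiated against untreated, a Wald statistic and its p-values. Values of each library, and so the spread and the depth of each, were not analysed here, so error enters only through the Wald statistic, which is the effect divided by its standard error. A gene rose or fell where the adjusted p, from the Wald test of DESeq2 with Benjamini-Hochberg adjustment, was under 0.05. The log2 fold changes were read as shrunken towards 0, and for all 10 genes they had the sign of the Wald statistic in each subset. The mean count is the same in the 3 tables and describes no single subset.

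In TAM, 6 of the 10 genes rose (Arg1, Arg2, Nos2, Gch1, Ass1 and Sat1) and Srm fell, while of all tested genes 13.9% rose and 12.5% fell (26.4% together). In granulocytes Arg1, Nos2 and Ass1 rose and Srm and Odc1 fell, beside 7.32% and 9.9% of all tested genes (17.2% together). In inflammatory monocytes only Arg1 rose and only Srm fell among the 10, beside 4.13% and 1.77% of all (5.9% together). The median log2 fold change of the 10 genes was 0.78 for TAM, 0.16 for inflammatory monocytes and 0.03 for granulocytes, against 0.03, 0.02 and -0.03 for all genes tested. As each library is RNA of a sorted population, more cells that express a gene and more RNA per cell cannot be told apart. When Wald statistics were divided by their robust SD (2.72 for TAM, 1.56 for inflammatory monocytes, 2.09 for granulocytes), no call among the 10 genes was left in any subset. That scaling left 0 calls among all genes in TAM and granulocytes and 25 in inflammatory monocytes, so the loss is not particular to the 10 genes.

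**Figure D1:**
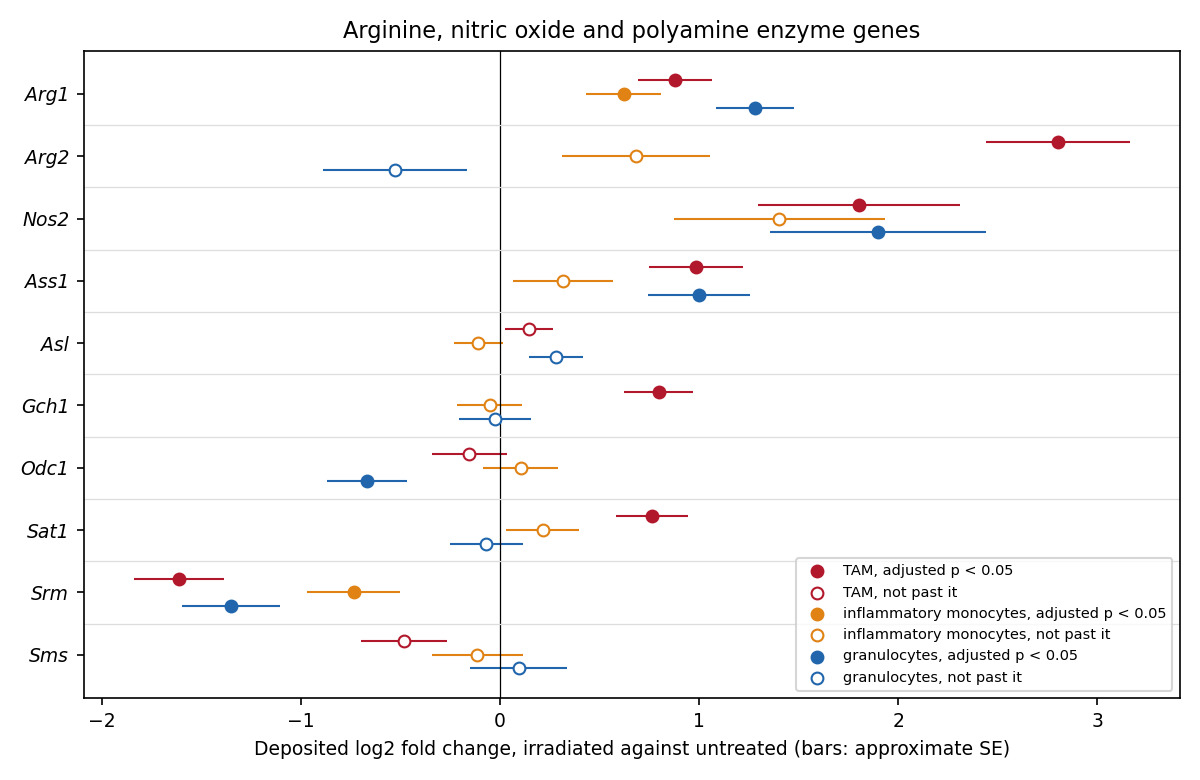
Deposited log2 fold change of irradiated against untreated (x axis) for each of the 10 genes (y axis) in TAM, inflammatory monocytes and granulocytes; bars are 1 approximate standard error (fold over Wald statistic) to each side, and filled points passed an adjusted p of 0.05. Arg1 lies right of 0 and Srm left of 0 in all 3 subsets, while Arg2 runs from 2.80 in TAM to -0.53 in granulocytes.

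Arg1 encodes the cytosolic arginase, best known from the urea cycle of liver and from alternatively activated macrophages, and it rose in all 3 subsets. Its log2 fold change in the authors' deposited table was 1.28 in granulocytes (2.43-fold, Wald statistic 6.52, adjusted p = 2.99e-08). Ranked by absolute Wald statistic, Arg1 was number 36 of the 15679 genes tested there. The authors' deposited table gives 0.88 in TAM (1.84-fold, Wald statistic 4.73, adjusted p = 3.86e-05) and 0.62 in inflammatory monocytes (1.54-fold, Wald statistic 3.28, adjusted p = 0.0258). The call in inflammatory monocytes was lost when p-values were adjusted over every gene with a p-value.

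Arg1 was also one of the most abundant transcripts of the series. Its mean normalised count over all libraries in the authors' deposited table was 108992, or 73793 per kilobase of its longest annotated transcript. On that scale of level it was number 14 of 17156 genes with an annotated length and a mean above 0. Arg2, with a mean of 2428 per kilobase, was number 717. Levels within a subset were not analysed here, so these ranks cannot be given to TAM, monocytes or granulocytes.

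Arg2 encodes the mitochondrial arginase, and its change was the largest of the 10 genes and differed between subsets. It rose in TAM, by 2.80 on the log2 scale per the authors' deposited table (6.98-fold, Wald statistic 7.78, adjusted p = 1.45e-12), number 87 of 16851 genes by absolute Wald statistic. The authors' deposited table gives Arg2 0.68 in inflammatory monocytes (Wald statistic 1.84, adjusted p = 0.291) and -0.53 in granulocytes (Wald statistic -1.47, adjusted p = 0.335), neither of which passed the test. Arg2 overlaps Vti1b and Gm48780 on the opposite strand in the GENCODE annotation, and the library kit keeps no strand. Vti1b, a vesicle fusion gene, had log2 fold changes of 0.02 (TAM), 0.14 (inflammatory monocytes) and 0.07 (granulocytes) in the authors' deposited table, with no call. For the antisense gene Gm48780, with a mean count of 43.8, the authors' deposited table gives 1.04 in TAM (adjusted p = 0.0867). It gives 0.89 in inflammatory monocytes (adjusted p = 0.294) and -0.60 in granulocytes (adjusted p = 0.419). These folds have the signs of those of Arg2, and how reads were shared between the overlapping genes was not tested.

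Nos2, the inducible nitric oxide synthase of activated macrophages and neutrophils, had folds above 1 on the log2 scale in all 3 subsets. It rose in granulocytes (log2 fold change 1.90, 3.73-fold, Wald statistic 3.50, adjusted p = 0.00615) and in TAM (1.80, 3.49-fold, Wald statistic 3.56, adjusted p = 0.0028), per the authors' deposited table. In inflammatory monocytes the authors' deposited table gives 1.40 (2.65-fold, Wald statistic 2.66, adjusted p = 0.0909), which did not pass. Its approximate standard error, 0.51 to 0.54 on the log2 scale, was the widest of the 10 genes, so a fold larger than that of Arg1 came with a smaller Wald statistic in each subset. The other synthase genes were scarce, with mean counts of 0.349 for the neuronal Nos1 and 6.67 for the endothelial Nos3 in the authors' deposited table, and Nos3 passed the test in no subset.

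Gch1 encodes GTP cyclohydrolase, the first enzyme on the way to tetrahydrobiopterin, the cofactor without which nitric oxide synthase does not work. It rose in TAM, by 0.80 on the log2 scale per the authors' deposited table (1.74-fold, Wald statistic 4.55, adjusted p = 8.14e-05). In inflammatory monocytes the authors' deposited table gives -0.05 (adjusted p = 0.91) and in granulocytes -0.03 (adjusted p = 0.951), so the rise of Nos2 in granulocytes stood beside no detected change of Gch1. The approximate 95% interval of Gch1 in granulocytes ran from -0.38 to 0.33. The pseudogene Gm18811 overlaps Gch1 and has a mean count of 9.07.

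Ass1 and Asl rebuild arginine from the citrulline that nitric oxide synthase releases. Ass1, argininosuccinate synthase, joins citrulline to aspartate and is taken to be the limiting step. It rose in granulocytes (log2 fold change 1.00, Wald statistic 3.92, adjusted p = 0.00184) and in TAM (0.98, Wald statistic 4.16, adjusted p = 0.00038), per the authors' deposited table, about 2-fold in both. Inflammatory monocytes had 0.32 in the authors' deposited table (adjusted p = 0.518). Asl, argininosuccinate lyase, which completes the step, passed in no subset, with 0.15 (TAM), -0.11 (inflammatory monocytes) and 0.28 (granulocytes) in the authors' deposited table. Its approximate 95% intervals reached at most 0.54, in granulocytes, where the interval began at 0.02 and the adjusted p was 0.132.

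Odc1, Srm and Sms make the polyamines in that order. Odc1, ornithine decarboxylase, turns ornithine into putrescine and is the regulated entry step. It fell in granulocytes, at -0.67 on the log2 scale per the authors' deposited table (1.59-fold lower, Wald statistic -3.33, adjusted p = 0.00964). In TAM it had -0.15 and in inflammatory monocytes 0.10 in the authors' deposited table, with adjusted p of 0.598 and 0.827.

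Srm, spermidine synthase, fell in all 3 subsets and had the largest fall of the 10 genes in each. Its log2 fold change in the authors' deposited table was -1.61 in TAM (3.06-fold lower, Wald statistic -7.11, adjusted p = 1.34e-10), -1.35 in granulocytes (2.55-fold lower, Wald statistic -5.48, adjusted p = 4.99e-06) and -0.74 in inflammatory monocytes (1.67-fold lower, Wald statistic -3.17, adjusted p = 0.0341). By absolute Wald statistic it was number 143 of 16851 genes in TAM and number 135 of 15679 in granulocytes. As with Arg1, the call in inflammatory monocytes was lost when p-values were adjusted over every gene with a p-value.

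Sms, spermine synthase, adds the last aminopropyl group and had the lowest mean count of the 10 genes, 95.9 in the authors' deposited table. It did not pass in any subset, and its log2 fold changes were -0.48 in TAM (adjusted p = 0.0848), -0.11 (inflammatory monocytes) and 0.09 (granulocytes) in the authors' deposited table. A pseudogene of it, Sms-ps, is listed with a mean count of 1.46, and reads could be split between both.

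Sat1 acts in the other direction: spermidine/spermine acetyltransferase marks polyamines for export or oxidation. It rose in TAM, by 0.77 on the log2 scale per the authors' deposited table (1.70-fold, Wald statistic 4.25, adjusted p = 0.00027). The authors' deposited table gives it 0.21 in inflammatory monocytes (adjusted p = 0.558) and -0.07 in granulocytes (adjusted p = 0.85). In TAM the spermidine synthase gene was thus lower and the polyamine acetyltransferase gene higher, while in granulocytes both biosynthetic genes Odc1 and Srm were lower and no change of Sat1 was detected.

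**Figure D2:**
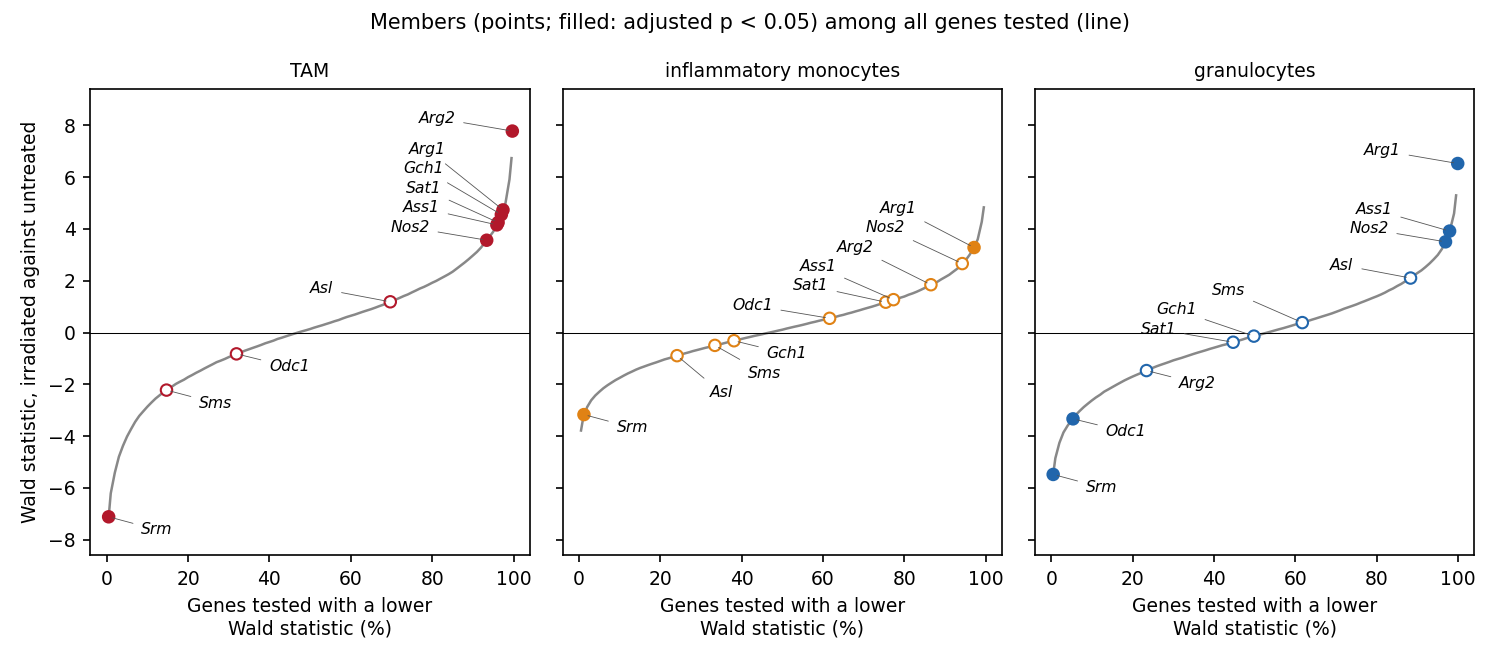
Wald statistic of irradiated against untreated (y axis) against the share of tested genes with a lower value (x axis, percent) in each subset; the line is all tested genes without the outermost at either end, and the points are the 10 genes, filled where the adjusted p was under 0.05. Arg2 tops the TAM panel with 7.78, Arg1 tops the other panels with 3.28 and 6.52, and Srm is the lowest point of each.

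The promoters of Gch1 and Sat1 are shown because both genes rose in TAM and, by the approximate test given further on, moved differently in granulocytes. RefSeq entries were matched by symbol for 5 of the 10 genes (Ass1, Gch1, Odc1, Sat1 and Sms). The sequences are the 250 bases before the RefSeq start on GRCm38.p6, a build before that of the deposited tables, written 5′ to 3′ on the strand of the gene. Capitals mark the searched motifs found on either strand. These were the GC box with the letters GGGCGG, the CCAAT box, spelled by its name, and TATAAA for the TATA box. Gch1 lies at chr14:47189414-47189663 and Sat1 at chrX:155216450-155216699, both on the minus strand.
Gch1: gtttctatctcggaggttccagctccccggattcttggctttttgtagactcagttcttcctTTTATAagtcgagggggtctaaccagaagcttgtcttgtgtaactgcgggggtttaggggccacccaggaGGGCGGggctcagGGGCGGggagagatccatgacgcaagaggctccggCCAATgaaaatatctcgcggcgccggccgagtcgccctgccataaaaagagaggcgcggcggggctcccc
Sat1: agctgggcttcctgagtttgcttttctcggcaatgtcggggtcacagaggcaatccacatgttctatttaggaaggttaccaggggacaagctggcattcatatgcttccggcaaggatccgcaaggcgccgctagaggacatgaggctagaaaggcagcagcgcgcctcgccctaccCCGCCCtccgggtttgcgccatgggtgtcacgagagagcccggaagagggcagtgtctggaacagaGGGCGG

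The Gch1 window holds 2 GC boxes, at 100 to 105 and 113 to 118 bases before the start, a CCAAT box at 66 to 70 bases, and TATAAA letters on the other strand at 183 to 188 bases. The Sat1 window holds 2 GC boxes, at 1 to 6 and 67 to 72 bases, and no CCAAT box or TATAAA. Of 32851 mouse promoter windows of the same length, 32.7% hold GGGCGG, 33.8% CCAAT and 12.4% TATAAA. The E-box CACGTG, which Myc and other factors bind, is in neither window and in 6.02% of all. The letters TTGCNNAA, bound by C/EBP factors, and TTCNNNGAA, bound by STAT factors, are also in neither, beside 9.56% and 7.02% of all windows. None of these motifs overlaps another in the printed windows.

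Whether the effect of irradiation differed between subsets was tested in a pair of ways. No member passed a test of opposite direction, which requires both subsets to change with opposite Wald signs, and at an unadjusted p under 0.05 the count was also 0 in each of the 3 pairs of subsets. Among all genes 0.0957% passed it between TAM and granulocytes, and 0% in each other pair. Chosen after the tables were seen, an approximate test took the deposited fold over the Wald statistic as the standard error and tested the difference of folds. It called 17% of 10569 genes between TAM and granulocytes, 10% of 10551 between TAM and inflammatory monocytes, and 1.64% of 10579 between inflammatory monocytes and granulocytes. As the folds are shrunken and libraries of different subsets share tumours, which the test ignores, its p-values are approximate.

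Arg2, Gch1 and Sat1 differed between TAM and granulocytes by that approximate test. The TAM minus granulocyte difference of log2 folds was 3.33 ± 0.51 (approximate standard error) for Arg2 (adjusted p = 1.73e-08), 0.82 ± 0.25 for Gch1 (adjusted p = 0.0113) and 0.83 ± 0.26 for Sat1 (adjusted p = 0.0124). Against inflammatory monocytes, the TAM difference was 2.12 ± 0.52 for Arg2 (adjusted p = 0.0021) and 0.85 ± 0.24 for Gch1 (adjusted p = 0.00945). No gene of the 10 passed between inflammatory monocytes and granulocytes. The arginase genes thus parted: Arg1 rose in all 3 subsets, while the rise of Arg2 in TAM was larger than its fold in either other subset.

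**Figure D3:**
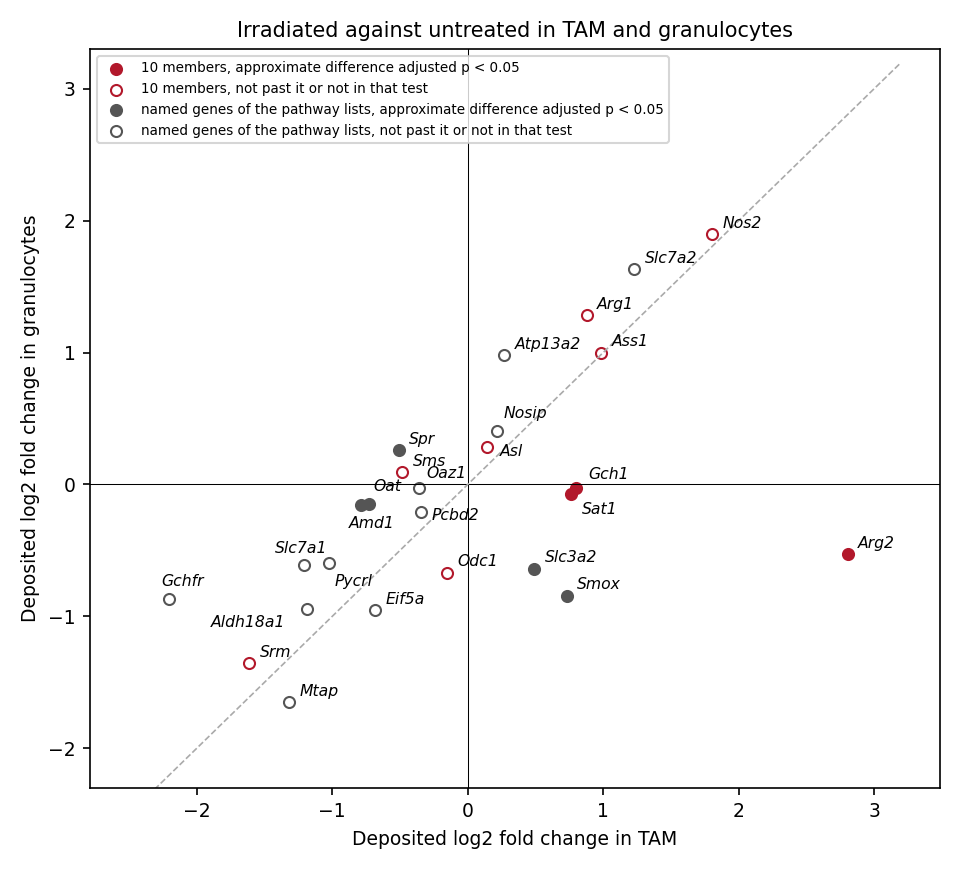
Deposited log2 fold change in TAM (x axis) against that in granulocytes (y axis) for the 10 genes (red) and named genes of the pathway lists (grey), filled where the approximate difference had an adjusted p under 0.05; the dashed line marks equal folds. Nos2, Ass1 and Arg1 lie near the line at upper right and Srm at lower left, while Arg2, Gch1, Sat1, Smox and Slc3a2 lie below it.

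Beyond the 10 genes, the supply of arginine and the fate of ornithine were followed in 18 further genes, 14 of which were tested. In TAM 2 rose and 7 fell, in granulocytes 1 and 3, and in inflammatory monocytes 1 and 1. Of all tested genes, 13.9% rose and 12.5% fell in TAM, 7.32% and 9.9% in granulocytes, and 4.13% and 1.77% in inflammatory monocytes. Slc7a2, the cationic amino acid transporter CAT2 of activated macrophages, rose in all 3 subsets, with log2 fold changes of 1.23 (TAM), 1.23 (inflammatory monocytes) and 1.63 (granulocytes) in the authors' deposited table. Its adjusted p there was 0.0114, 0.0404 and 0.00156. Slc7a1, the housekeeping transporter CAT1, fell in TAM (-1.21, adjusted p = 5.9e-05) and inflammatory monocytes (-0.87, adjusted p = 0.0261) in the authors' deposited table, with -0.61 (adjusted p = 0.118) in granulocytes. Slc3a2, the heavy chain shared by several amino acid transporters, rose in TAM (0.49) and fell in granulocytes (-0.64), per the authors' deposited table, and the approximate test put the difference at 1.13 ± 0.20 (adjusted p = 2.66e-06). The test of opposite direction did not call it (adjusted p = 0.13).

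Enzymes that take ornithine and glutamate to proline fell in TAM. Oat, ornithine aminotransferase, stood at -0.72 on the log2 scale (adjusted p = 2.05e-10), per the authors' deposited table. Aldh18a1, which makes the proline precursor from glutamate, had -1.19 and the reductase gene Pycrl had -1.02 in TAM in the authors' deposited table. Aldh18a1 (-0.94, adjusted p = 0.000665) fell in granulocytes as well, per the authors' deposited table. Gatm, the first enzyme of creatine synthesis from arginine, fell in TAM (-1.06, adjusted p = 0.000178 in the authors' deposited table). The urea cycle genes Otc and Cps1, which act in liver mitochondria, were listed at mean counts of 0 and 0.116 and were not tested.

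Of 16 further genes of the nitric oxide system 12 were tested, and in TAM 0 rose, 5 fell and 7 did not pass. Among all tested genes, 13.9% rose and 12.5% fell in TAM, while 4.13% rose in inflammatory monocytes and 7.32% in granulocytes. Gchfr, the feedback regulator that restrains the Gch1 enzyme, fell with -2.20 (adjusted p = 0.00277), per the authors' deposited table, where its mean count was 26.2. Spr, the last enzyme of tetrahydrobiopterin synthesis, fell with -0.51, and the recycling genes Pcbd2 and Qdpr with -0.34 and -0.53, in TAM in the authors' deposited table. Thus Gch1 was higher and the biopterin genes Spr, Pcbd2 and Qdpr and Gchfr were lower in the same comparison. Nosip, which encodes a protein that binds nitric oxide synthase, was the only gene of the list to rise elsewhere, in inflammatory monocytes (0.57, adjusted p = 0.000675) and granulocytes (0.41, adjusted p = 0.019) in the authors' deposited table.

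Of 18 further polyamine genes, 16 were tested. In TAM 1 rose and 6 fell, in granulocytes 1 rose and 4 fell, and in inflammatory monocytes 1 fell. The shares of all tested genes that rose and fell were 13.9% and 12.5% in TAM and 7.32% and 9.9% in granulocytes. They were 4.13% and 1.77% in inflammatory monocytes. Mtap, which clears the methylthioadenosine that Srm and Sms release, fell in all 3 subsets, with log2 fold changes of -1.32 (TAM), -0.85 (inflammatory monocytes) and -1.65 (granulocytes) in the authors' deposited table. Amd1, S-adenosylmethionine decarboxylase, which supplies the aminopropyl donor, fell in TAM (-0.78, adjusted p = 1.89e-06 in the authors' deposited table), and its close copy Amd2 was listed with a mean count of 2.00. Eif5a, the translation factor that carries a modified residue made from spermidine, fell in TAM (-0.68) and granulocytes (-0.95, adjusted p = 3.34e-08) in the authors' deposited table. Dohh, an enzyme of that modification, fell in TAM with -0.52 in the authors' deposited table. Oaz1, the antizyme that sends ornithine decarboxylase to the proteasome, fell in TAM (-0.36, adjusted p = 0.000297), and Azin1, the inhibitor of antizymes, fell in granulocytes (-0.64, adjusted p = 0.0241), per the authors' deposited table.

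The polyamine oxidation genes did not move as one. Smox, spermine oxidase, rose in TAM (log2 fold change 0.73, adjusted p = 0.0143) and fell in granulocytes (-0.84, adjusted p = 0.0151), with -0.76 (adjusted p = 0.0519) in inflammatory monocytes, in the authors' deposited table. The approximate test put the TAM minus granulocyte difference at 1.57 ± 0.36 (adjusted p = 0.000393) and that against inflammatory monocytes at 1.50 ± 0.35 (adjusted p = 0.0015), while the stricter test of opposite direction gave an adjusted p of 0.384 for TAM and granulocytes. Paox, the oxidase of acetylated polyamines made by Sat1, fell in TAM (-0.59, adjusted p = 0.0324 in the authors' deposited table). Atp13a2, a lysosomal polyamine exporter, rose in granulocytes (0.98, adjusted p = 0.00133 in the authors' deposited table). In TAM, then, Sat1 and Smox rose and Paox fell.

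**Figure D4:**
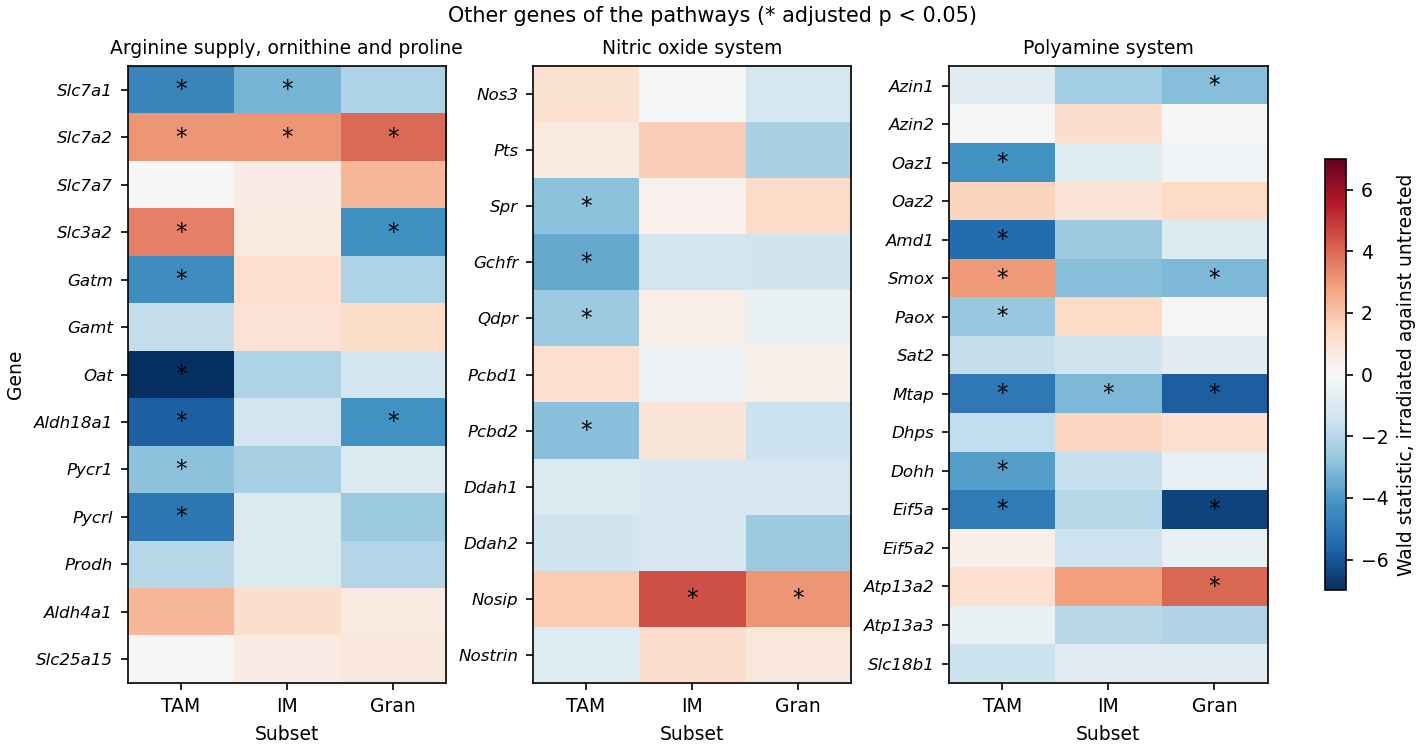
Wald statistic of irradiated against untreated (colour) for tested genes of the arginine supply, nitric oxide and polyamine lists (y axis) in TAM, inflammatory monocytes (IM) and granulocytes (Gran; x axis), with asterisks at an adjusted p under 0.05. Slc7a2 is red and Mtap blue in all 3 columns, and Smox and Slc3a2 are red in TAM and blue in granulocytes.

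Of 12 transcription factors known to act on Arg1, Nos2 or Odc1, 8 rose and 2 fell in TAM, where 26.4% of all tested genes passed. In granulocytes 1 rose and 3 fell, beside 17.2% of all tested genes, and in inflammatory monocytes 0 of 12 passed, beside 5.9%. Hif1a and Cebpb rose in TAM with log2 fold changes of 1.36 and 1.05, and Myc, which drives Odc1 and other growth genes, fell with -1.19 (adjusted p = 4.96e-06), in the authors' deposited table. Cebpb, an activator of Arg1, fell in granulocytes (-0.69, adjusted p = 0.00228 in the authors' deposited table), the subset in which Arg1 had its largest Wald statistic. Klf4, another factor of alternative activation, rose in TAM (1.46) and granulocytes (1.08) in the authors' deposited table. Pparg, of the same list, fell in TAM (-1.28, adjusted p = 0.00134 in the authors' deposited table).

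Genes that are read with Arg1 as marks of alternative activation rose in 4 of 7 cases in TAM, 2 of 7 in inflammatory monocytes and 1 of 7 in granulocytes, and none fell. Beside these counts, 13.9% of all tested genes rose and 12.5% fell in TAM. The shares were 4.13% and 1.77% in inflammatory monocytes and 7.32% and 9.9% in granulocytes. Chil3, a chitinase-like lectin, rose in TAM (log2 fold change 3.22) and granulocytes (2.60), and Retnla rose in TAM (2.91), in the authors' deposited table. Mrc1, the mannose receptor, rose in inflammatory monocytes (0.85, adjusted p = 0.0144) and had -0.25 (adjusted p = 0.45) in TAM in the authors' deposited table. Mgl2, of the same list, had -1.42 in TAM, just short of a call (adjusted p = 0.055 in the authors' deposited table). Genes that are read with Nos2 as marks of inflammatory activation rose in 5 of 8 cases in TAM with 1 that fell, and in 3 of 8 in granulocytes with 2 that fell, and 0 of 8 passed in inflammatory monocytes. Tnf rose in TAM (0.92) and granulocytes (1.03), Cxcl10 in granulocytes (1.32), and Acod1, which makes itaconate, in TAM (1.34), in the authors' deposited table. Il1b and Ptgs2, which encode interleukin-1 beta and an inducible cyclooxygenase, rose in TAM (1.50 and 1.23) and fell in granulocytes (-0.71, adjusted p = 0.0205, and -0.89, adjusted p = 0.00564), per the authors' deposited table. The approximate difference between TAM and granulocytes was 2.21 ± 0.32 for Il1b (adjusted p = 2.93e-09) and 2.12 ± 0.34 for Ptgs2 (adjusted p = 1.11e-07), while the test of opposite direction called neither (adjusted p = 0.349 and 0.13). Il6 rose in TAM (1.51) and granulocytes (1.01), and the chemokine gene Cxcl9 fell in TAM (-1.06, adjusted p = 0.0163), per the authors' deposited table.

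Likeness of pattern was measured as the Euclidean distance between the 3 Wald statistics of a gene and of a member, over 10683 genes whose mean count was 50 or more. It rests on 3 comparisons, not on single libraries. Closest to Nos2 was Tnf, at a distance of 0.18, before Cmpk2 at 0.33 and Gpr171 at 0.49. Closest to Arg1 were the kinase gene Dyrk2 at 0.16 and Ms4a6d and Trim62 at 0.32 each. Their rise in each subset follows from this choice by closeness and is no separate result. Closest to Odc1 was Eif2ak4 at 0.31, before Oxnad1 at 0.38.

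Some marker genes of further cell types changed too. For comparison with the counts that follow, 13.9% of all tested genes rose and 12.5% fell in TAM. Those shares were 4.13% and 1.77% in inflammatory monocytes and 7.32% and 9.9% in granulocytes. In TAM, neutrophil markers rose in 7 of 8 cases, monocyte markers in 3 of 6 and eosinophil markers in 4 of 4 tested, while dendritic cell markers fell in 4 of 6. The neutrophil genes S100a8 and S100a9 are among these by their Wald statistics, 2.99 and 4.16, but carry log2 fold changes of -0.05 and -1.24 in the authors' deposited table, so their direction is uncertain. The eosinophil granule gene Epx had a mean count of 0.351. In inflammatory monocytes, macrophage markers rose in 6 of 8 cases and neutrophil markers in 5 of 8, and in granulocytes macrophage markers in 4 of 8 and monocyte markers in 2 of 6. Neutrophil markers rose in 1 of 8 cases in granulocytes. Eosinophil markers rose outside TAM as well, in 2 of 4 tested in inflammatory monocytes and 1 of 4 in granulocytes. Of fibroblast markers 2 of 6 fell in TAM and 2 of 6 in granulocytes, and of epithelial markers 1 of 5 tested rose in TAM. Of lymphocyte markers 1 of 6 fell in TAM and 1 of 6 rose in inflammatory monocytes. Summed levels of these markers in each group, and the labelled cell types themselves, could not be checked from tables of means and folds, and the part of other cells in the changes of the 10 genes was not tested.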

How the data were processed

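RNA-seq libraries of sorted myeloid subsets were compared by the authors, irradiated against untreated. Per the submitters' processing notes, the tools were fastp (0.20.1), STAR (2.7.6a) and, under R 4.0.2, DESeq2 (1.28.1), with the build mm39 (GRCm39). Read counting, its strand setting and the annotation were not given in the sources used here. Per the labels' protocols, libraries came from picogram amounts of cDNA and a transposase kit, and such a kit keeps no strand; small inputs can add spread at weakly expressed genes. The authors deposited 3 tables with a mean normalised count (a signal averaged over libraries, the same in each table), a log2 fold change read as shrunken, a Wald statistic (a score), a p-value and its adjusted form, which is absent for genes of low mean. A normal two-sided p computed from the Wald statistic matched the deposited p-value within 0.00211 on the log10 scale for means of at least 50.

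From these tables, calls were counted at an adjusted p under 0.05 with the Wald sign as direction. The approximate standard error is fold over Wald statistic. Its TAM over granulocyte ratio had a median of 0.924, and library numbers alone give 0.935. The approximate test used genes with a mean of at least 50 whose fold and Wald statistic share a sign. Both tests between subsets were adjusted over all genes in them. Named genes were the 10 members, up to 4 called genes per list and comparison with the smallest p (or 2 of the highest mean where none passed) and the 3 nearest genes by pattern for Arg1, Nos2 and Odc1, predicted genes left out. Some genes that this rule names are not reported here, though list counts include them. Qdpr, Gatm, Dohh, Azin1, Paox, Nos3, Cxcl9, Pparg, Mgl2, marker genes, genes not tested, overlapping genes and copies were added after their values were seen. Members and lists were chosen with earlier results of these data known. Lengths came from GENCODE M21 by symbol. Python 3.11.15, pandas 2.3.3, numpy 2.4.6 and scipy 1.17.1 were used. The tests were also tried on simulated data with unshrunken folds, known standard errors and independent subsets. As these data differ in those points, that trial does not check the p-values of the approximate test. Each tumour is read as a separate sample, as labelled. As the mean count is the same in each table, the tables appear to come from a single fit over all subsets. The p-values would then rest on a spread pooled over the subsets, not on that between tumours within a subset. Libraries of different subsets share tumours by their labels (41 libraries, 15 tumour numbers), and whether the fit allowed for this was not given.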

Additional observations from a re-analysis of the deposited data

Results flagged for a closer look

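The effect of irradiation on 3 of the 10 genes differed between subsets by the approximate test of the difference of folds, which was chosen after the tables were seen. Among all genes in it, that test called 17% between TAM and granulocytes and 10% between TAM and inflammatory monocytes. For Arg2 the log2 difference was 3.33 between TAM and granulocytes and 2.12 between TAM and inflammatory monocytes. For Gch1 it was 0.82 and 0.85 in the same pairs. For Sat1 it was 0.83 between TAM and granulocytes. In each of the 5 cases the fold was higher in TAM, and none passed the test of opposite direction.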

How the results depend on the processing

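No paired analysis was possible because the tables hold comparisons and no values of single libraries, and for the same reason leaving out a replicate, edgeR and another normalization were not run. With an adjusted p under 0.01, calls over all genes fell to 2918 (TAM), 369 (inflammatory monocytes) and 1420 (granulocytes), from 4448, 856 and 2699, and the members of inflammatory monocytes that rose and fell went from 1 and 1 to 0 and 0. With an adjusted p under 0.1, all-gene calls in inflammatory monocytes were 1343, Nos2 joined Arg1 there (2 rose), and Sms joined Srm in TAM (2 fell). Adjusted over every gene with a p-value, inflammatory monocytes had 543 calls and 0 members. Where a log2 fold of 1 or more in size was also required, all-gene calls were 1657, 360 and 1158; in TAM 2 members rose (Arg2 and Nos2), in inflammatory monocytes 0 rose and 0 fell, and in granulocytes 1 fell (Srm). Scaling the Wald statistic by its robust SD left 0 genes (TAM), 25 (inflammatory monocytes) and 0 (granulocytes), and 0 members that rose or fell in any. In place of 0 members by the test of opposite direction, the approximate difference called 2 between TAM and inflammatory monocytes and 3 between TAM and granulocytes. Its shares over all genes in those pairs were 10% and 17%. Subtracting the median Wald statistic, or keeping genes whose mean count was 50 or more, left every call of the 10 genes unchanged. Only the subtraction could turn a direction, as the other settings keep the sign of the Wald statistic. It turned none, with medians of 0.24 (TAM), 0.09 (inflammatory monocytes) and -0.08 (granulocytes). Depth of single libraries is unknown here, so for members that did not pass, such as Sms at a low mean count, a change cannot be told from none.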
